A study of Mus musculus with 19 samples.

Results

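Vehicle-treated C2C12 cells were compared at 12 h and at 2 h, with no drug in either group, to show how gene expression in these cultures moved over the hours of the experiment alone. C2C12 is an established line of mouse myoblasts, the proliferating precursors of skeletal muscle, here wild type and kept in DMEM with 10% fetal bovine serum. The members are the 5 libraries titled as DMSO at 12 h (2 libraries) or DMSO at 2 h (3 libraries), out of 19 libraries of 7 groups. The labels give the DMSO exposure as 100 nM, the same figure as for thapsigargin, and name no untreated group. The other groups were DMSO at 6 h (3 libraries), 100 nM thapsigargin at 2, 6 and 12 h (3, 3 and 2 libraries) and a recovery group of 6 h of drug followed by 48 h in medium without it (3 libraries). Polyadenylated RNA was sequenced, and levels are given as counts per mega-count of TMM-scaled library size (CPM). The labels name no plating density, medium change or preparation batch, so hours in culture and any such difference between the 2 h and 12 h libraries cannot be told apart. Nor do they tell if replicates came from different cultures, so p-values may reflect technical spread alone.

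Library totals were 34.7, 35.3 and 41 M (mega) counts at 2 h and 21.8 and 19.3 M at 12 h. Mitochondrially encoded genes took 2.80%, 3.07% and 15.8% of the counts in 2 h replicates 1, 2 and 3, and 3.04% and 3.07% at 12 h. Replicate 3 of the 2 h group therefore stands apart, and results are given with and without it. The difference in log2 level of long over short transcripts from the mean of all libraries was 0.62, 0.69 and 1.07 at 2 h and 0.55 at 12 h in both libraries. At 6 h it lay between -1.23 and -0.54, so the 6 h vehicle libraries are not contrasted here: they enter the shared estimate of the spread, the scaling and the filter, and are otherwise given as levels beside the result. Of 8 myoblast markers, all were counted at 2 h, among them Des, the muscle intermediate filament, at 1233, 1116 and 1103 CPM and Myod1 at 219, 199 and 219 CPM.

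Proliferating myoblasts carry the basic helix-loop-helix factor MyoD, which binds E-box sequences and, when growth signals fall, works with myogenin to switch on the genes of contractile fibres. Serum and growth factors act on immediate early genes such as those of the FOS, EGR and NR4A families, which are transcribed within minutes and feed back on the same signals. Muscle and connective tissue cells also make chemokines and complement proteins, secreted factors of innate immunity that are switched on largely through NF-kB and through interferon-responsive factors.

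At 12 h the vehicle cultures held more RNA than at 2 h for several chemokines and complement proteins, among them C3, Cxcl5 and Cxcl1, and less for Myod1, Myog, 17 of 28 muscle differentiation genes and 14 of 31 immediate early genes. In edgeR's quasi-likelihood test 1293 of 18039 genes passed an adjusted p of 0.05, which is 7.17% of those tested. Of these, 547 were higher at 12 h (3.03%) and 746 were lower (4.14%), and 1086 differed by 2-fold or more. The median log2 difference of all genes tested was 0.05. The libraries of both groups did not overlap for 8919 genes (49.4%), so that separation alone was common. Without 2 h replicate 3, 1093 of 17955 genes passed (6.09%), 429 higher and 664 lower, and 960 of the 1293 genes passed in the same direction (74.2%). The count rests on both 12 h libraries: 439 genes passed without replicate 1 of 12 h and 430 without replicate 2, with the remaining 12 h library assumed to vary like the other groups. Such refits here and below leave 1 library at 12 h, and whether calls were lost to the smaller group was not tested. The count also moves with scaling, since scaling to total counts raised the median of all genes to 0.25 and gave 850 genes, 56.4% of them higher against 42.3% with TMM.

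**Figure D1:**
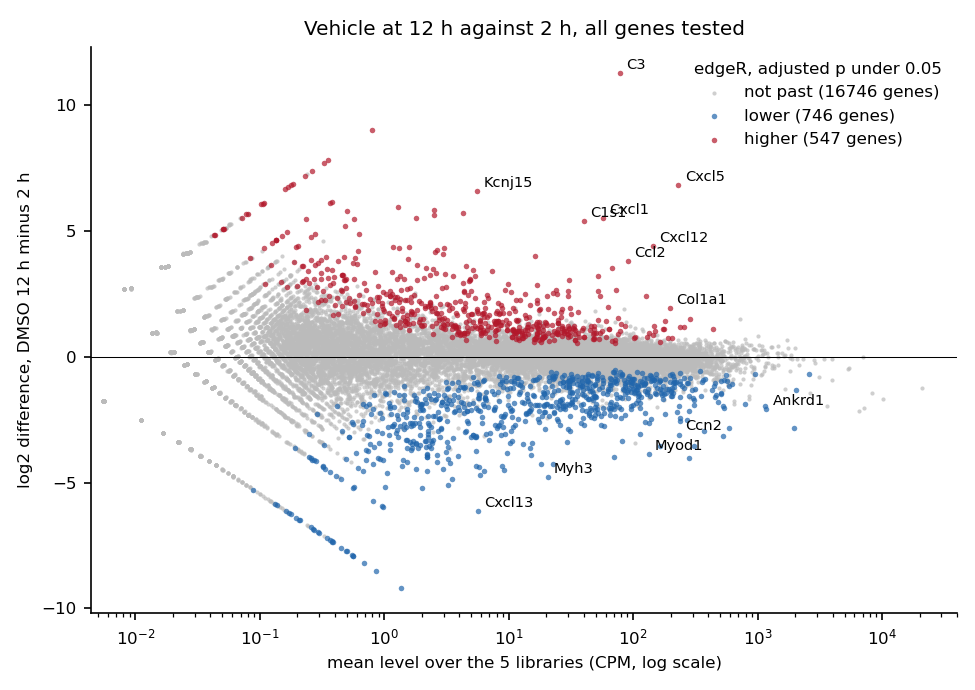
Each point is 1 of the genes tested: the x axis is its mean level over the 5 libraries (CPM, log scale), the y axis the log2 difference between DMSO at 12 h and at 2 h, and colour marks the edgeR call. The 547 higher genes include C3 and several chemokines far above the rest at their level, while the 746 lower genes reach into abundant transcripts such as Ankrd1.

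Among called coding genes of at least 5 CPM with no overlap between the groups, 7 of the 10 largest increases were of chemokines and complement genes. Under the same limits the largest falls held the chemokine Cxcl13 (log2 difference of -6.15) and the complement inhibitor Serping1 (-4.37). The share of such genes among all genes tested was not counted. C3 (ENSMUSG00000024164.15, chr17:57203970-57228136, minus strand, GRCm38), the central complement component, had 8 counts in all in the 3 libraries at 2 h and 9105 counts in the 2 libraries at 12 h. The levels were 0, 0.0833 and 0.14 CPM at 2 h and 207 and 184 CPM at 12 h, a ratio of 2653 with a 95% counting interval from 1346 to 6147. Without 2 h replicate 3 the ratio was 4729, with an interval from 1618 to 22936, on 3 counts at 2 h. The intervals cover counting error only. Cxcl5 (ENSMUSG00000029371.7, chr5:90759360-90761624, plus strand), a chemokine that draws neutrophils, was at 5.02, 6.06 and 3.94 CPM at 2 h and 597 and 542 CPM at 12 h, with no overlap between the groups. Its log2 difference was 6.83 (SE 0.22), with an adjusted p of 2.96e-11, a 114-fold rise. Cxcl1 (ENSMUSG00000029380.11, chr5:90891241-90893115, plus strand), from the same cluster on chromosome 5 and with the same receptor, was at 3.42, 3.25 and 2.37 CPM at 2 h and 138 and 139.6 CPM at 12 h. It rose by 5.52 (SE 0.48) on the log2 scale (adjusted p = 4.51e-06). Cxcl12, the ligand of Cxcr4 that guides migrating myoblasts, was at 14.4, 19.8 and 13.7 CPM at 2 h and 343 and 335 CPM at 12 h, a log2 difference of 4.41 (SE 0.32) (adjusted p = 1.03e-06). Ccl2 and Ccl7, adjacent genes on chromosome 11 whose products attract monocytes, had log2 differences of 3.80 (SE 0.34) and 3.52 (SE 0.21), with adjusted p = 4.99e-06 and 8.53e-08. Ccl2 was at 18.2, 14.4 and 11.6 CPM at 2 h and 197 and 213 CPM at 12 h, and Ccl7 at 12.1, 13.7 and 13 CPM at 2 h and 141 and 156 CPM at 12 h. In each of these genes that rose, both 12 h libraries lay close together. That they lay above all 3 libraries at 2 h follows from how the genes were picked.

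The others of these 10 were C1s1, Kcnj15, Kif26b and Slpi. C1s1, a protease of the first complement component, was at 3.34, 2.33 and 1.26 CPM at 2 h and 98.1 and 95.7 CPM at 12 h, a log2 difference of 5.39 (SE 0.43). Kcnj15, an inwardly rectifying potassium channel, had 15 counts at 2 h and 638 at 12 h, a ratio of 99.1 (95% counting interval from 59.7 to 178), and of 166 without 2 h replicate 3 (75.7 to 453). Kif26b, a kinesin family member, was at 1.99, 2.47 and 2.43 CPM at 2 h and 38.6 and 36.3 CPM at 12 h, and Slpi, a secreted protease inhibitor, at 1.33, 1.25 and 0.502 CPM at 2 h and 12 and 10.7 CPM at 12 h. Their log2 differences were 4.02 (SE 0.25) and 3.47 (SE 0.53). All 10 of these genes kept their call when any 1 of the 5 libraries at 2 h and 12 h was left out. At 6 h the vehicle means of C3, Cxcl5, Cxcl1 and Cxcl12 were 0.0515, 6.69, 2.3 and 21.1 CPM, against 2 h means of 0.0743, 5.01, 3.02 and 16 CPM.

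The list of NF-kB targets, chemokines and cytokines had 10 of 29 tested genes higher and 2 lower, with a median of 0.67 (0.64 with members that had no count in a group placed at a floor of 3 counts over it). Besides those above, Ccl5, Ccl9, Cxcl10, Saa3 and Nfkbia were higher, and Cx3cl1 and Ptgs2 were lower. Ptgs2, the inducible cyclooxygenase, was at 418, 419.5 and 612 CPM at 2 h and 39.5 and 43.8 CPM at 12 h, a log2 difference of -3.54 (SE 0.64), and it lost its call without either 12 h library (-3.46, adjusted p = 0.0627 without replicate 1 and -3.61, adjusted p = 0.0536 without replicate 2). Ccl5 and Nfkbia lost theirs without 2 h replicate 3 (adjusted p = 0.131 and 0.0977), and so they did without replicate 1 or 2 of 12 h (0.196 and 0.129 for Ccl5, 0.239 and 0.173 for Nfkbia). Ccl9 lost its call without replicate 1 of 12 h (adjusted p = 0.0692). Il6 was at 1.21, 1.36 and 1.0 CPM at 2 h and 1.09 and 0.876 CPM at 12 h and did not pass (adjusted p = 0.849). Leaving out a 12 h library left 7 or 8 genes of the list higher and 1 lower. In 20 tested genes of the complement cascade, a list drawn up after C3 and C1s1 had been seen, 6 were higher and 2 lower. The median was 0.80, or 0.53 with such members at the same floor. C1ra rose from 6.87, 6.0 and 10.7 to 66.6 and 63.7 CPM and C1rl from 5.55, 4.69 and 4.8 to 19.5 and 19.1 CPM. Serping1, the inhibitor of the first complement component, went the other way, at 8.12, 6.14 and 14 CPM at 2 h and 0.527 and 0.369 CPM at 12 h.

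**Figure D2:**
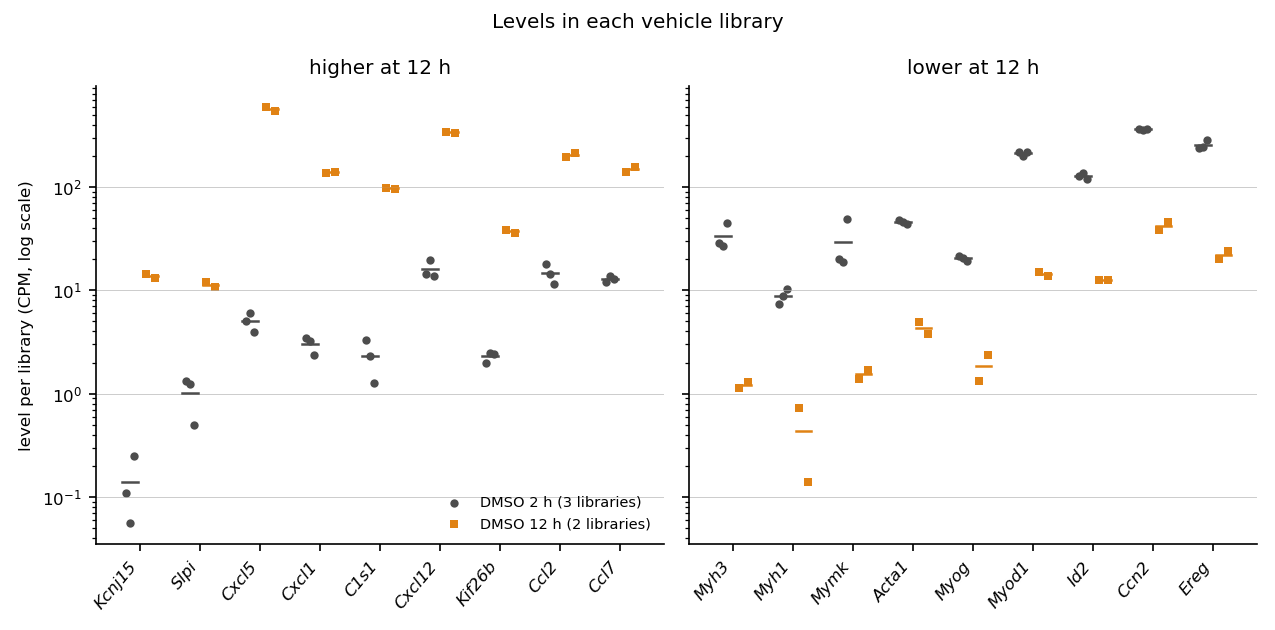
Points are levels in single libraries (CPM, log scale) for 9 genes that rose and 9 that fell, with short lines at group means; dark circles are the 3 libraries at 2 h and orange squares the 2 at 12 h. Groups are fully separated in every gene shown, from Cxcl5 at 3.94 to 6.06 CPM against 542 and 597, to Myod1 at 199 to 219 CPM against 13.8 and 15.0. The genes that rose were picked among those with no overlap. Since 49.4% of all genes tested did not overlap, separation alone is no result.

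The promoters of the chemokine genes were searched for the NF-kB consensus on both strands, in windows of RefSeq (GRCm38.p6) that run from 250 bases before to 50 bases after the start of the gene. Of the 10 genes of that list that rose, 6 had a window and 4 of these held a match, while 9.55% of all 27025 genes with a window did. Here and for the motifs below, the lists had been drawn up by function or regulation. Called members were not compared with uncalled members of the same list. The shares therefore describe the lists and not the change between 2 h and 12 h. The 2 windows below carry the overlapping matches of Cxcl1 and the matches of Cxcl10, an attractant of T cells that was at 0.304, 0.528 and 0.475 CPM at 2 h and 2.72 and 2.81 CPM at 12 h. Capitals mark the matches, and a match describes the letters only.
Cxcl1: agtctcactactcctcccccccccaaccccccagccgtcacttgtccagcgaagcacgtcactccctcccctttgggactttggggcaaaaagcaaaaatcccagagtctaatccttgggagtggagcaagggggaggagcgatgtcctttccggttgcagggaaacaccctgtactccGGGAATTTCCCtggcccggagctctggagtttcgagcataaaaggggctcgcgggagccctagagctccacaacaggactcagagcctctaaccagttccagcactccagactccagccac
Cxcl10: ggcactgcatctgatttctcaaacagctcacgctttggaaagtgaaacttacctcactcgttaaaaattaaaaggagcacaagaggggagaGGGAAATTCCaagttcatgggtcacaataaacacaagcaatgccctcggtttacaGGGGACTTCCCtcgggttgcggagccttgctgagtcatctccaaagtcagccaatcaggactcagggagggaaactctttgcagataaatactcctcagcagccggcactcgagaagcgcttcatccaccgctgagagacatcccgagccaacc
The Cxcl1 window lies at chr5:90890995-90891294 on the plus strand and the Cxcl10 window at chr5:92348840-92349139 on the minus strand. Ccl9 and Nfkbia held 1 match each, and the windows of Cxcl12 and Saa3 none.

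Some interferon-stimulated genes were higher at 12 h. Of 26 tested genes 9 were higher and 0 lower in edgeR, with a median of 0.86. At an unadjusted p under 0.05 the numbers were 16 and 0, and in DESeq2 12 and 0. Ifit3, an interferon-induced RNA-binding family member, was at 0.276, 0.444 and 0.475 CPM at 2 h and 2.47 and 2.12 CPM at 12 h, a log2 difference of 2.52 (SE 0.45). Bst2, a membrane protein that tethers budding viruses, was at 6.49, 5.53 and 1.95 CPM at 2 h and 15.6 and 15.5 CPM at 12 h, and Irf1, a transcription factor of the interferon response, at 13.6, 11.3 and 5.86 CPM at 2 h and 28.6 and 25.5 CPM at 12 h. Their log2 differences were 1.74 (SE 0.42) and 1.40 (SE 0.29), with adjusted p = 0.0168 and 0.00705. The list's count moved with the set of libraries. Without 2 h replicate 3, 6 genes passed. Fewer passed without replicate 1 or 2 of 12 h, which leaves 1 library in that group. The list's median was then 0.77 and 0.91. Bst2 and Irf1 lost their calls without either 12 h library (Bst2 at 1.74, adjusted p = 0.115 and at 1.74, adjusted p = 0.111, Irf1 at 1.31, adjusted p = 0.0951 and at 1.48, adjusted p = 0.0526), whereas Ifit3 kept its call without any 1 of the 5 libraries.

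The interferon-stimulated response element, searched as GAAA, NN and GAAA in a row on both strands, was in the windows of 6 of the 8 higher genes that had one, and in those of 3.99% of all genes with a window. Ifit3 and Bst2 held 2 matches each, shown for the higher genes described above.
Ifit3: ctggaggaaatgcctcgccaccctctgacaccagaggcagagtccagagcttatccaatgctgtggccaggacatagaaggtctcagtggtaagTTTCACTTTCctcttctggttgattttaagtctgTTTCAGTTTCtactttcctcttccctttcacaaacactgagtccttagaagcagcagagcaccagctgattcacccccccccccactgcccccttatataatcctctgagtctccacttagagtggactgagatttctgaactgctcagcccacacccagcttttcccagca
Bst2: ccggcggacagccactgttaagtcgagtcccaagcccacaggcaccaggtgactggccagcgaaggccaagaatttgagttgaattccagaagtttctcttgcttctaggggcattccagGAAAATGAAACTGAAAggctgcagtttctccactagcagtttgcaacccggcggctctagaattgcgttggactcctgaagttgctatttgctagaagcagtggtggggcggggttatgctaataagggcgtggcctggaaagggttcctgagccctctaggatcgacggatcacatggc
The Ifit3 window lies at chr19:34583279-34583578 on the plus strand and that of Bst2 at chr8:71537423-71537722 on the minus strand. The windows of Irf1 and Tap1, both called higher, held no match. Uncalled members of the interferon list were not compared.

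Of 22 tested genes of myoblast identity 7 fell and 0 rose, with a median of -0.96, and at an unadjusted p under 0.05 the numbers were 10 and 0. Myod1 (ENSMUSG00000009471.4, chr7:46376474-46379099, plus strand), the factor that commits cells to muscle, was at 219, 199 and 219 CPM at 2 h and 15 and 13.8 CPM at 12 h. That is 212 ± 11.9 CPM (SD, n = 3) against 14.4 ± 0.822 (SD, n = 2), a log2 difference of -3.88 (SE 0.31) and an adjusted p of 2.15e-06, and the 12 h level was 14.7-fold lower. Myog, or myogenin, which drives entry into differentiation, was at 21.6, 20.8 and 19.4 CPM at 2 h and 1.34 and 2.35 CPM at 12 h, a log2 difference of -3.48 (SE 0.36) (adjusted p = 2.09e-05). The 6 h vehicle means lay between the 2 h and 12 h means in both, at 101 CPM for Myod1 and 5.4 CPM for Myog. The whole list did not share this course. Its 22 genes summed to 3255 to 3451 CPM per library at 2 h, 2678 to 3952 at 6 h and 1777 to 1794 at 12 h. Cdh15, the cadherin of myoblasts, fell from 480.3, 459.6 and 342 to 128 and 131 CPM. The others that fell were Pax7, Mef2a, Mef2c and Heyl. Myf5, the relative of Myod1 that acts earlier in the lineage, was at 31.5, 34.8 and 50.4 CPM at 2 h and 28 and 28.5 CPM at 12 h and did not pass (adjusted p = 0.696). Vcam1, an adhesion receptor, did not pass either, with a log2 difference of 0.39. Without replicate 1 or 2 of 12 h 4 of the 22 passed, and Pax7 (adjusted p = 0.16 and 0.106), Mef2a (0.203 and 0.224) and Mef2c (0.0932 and 0.0626) were lost. Mef2a also lost its call without 2 h replicate 3 (adjusted p = 0.087).

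Genes of muscle differentiation and the sarcomere had the lowest median of any list, at -2.51, and -2.38 without 2 h replicate 3. Of 28 tested genes 17 fell and 0 rose, and without that library 16 fell. Without replicate 1 or 2 of 12 h, 12 and 10 fell. The 28 genes summed to 1926 to 2855 CPM per library at 2 h, 2430 to 3640 at 6 h and 1288 to 1335 at 12 h. Myh3 (ENSMUSG00000020908.14, chr11:67078300-67102291, plus strand), the embryonic myosin heavy chain, was at 29, 26.6 and 44.6 CPM at 2 h and 1.14 and 1.29 CPM at 12 h, a log2 difference of -4.78 (SE 0.37) and an adjusted p of 1.91e-06. Myh1, a fast myosin heavy chain, was at 7.34, 8.92 and 10.4 CPM at 2 h and 0.73 and 0.138 CPM at 12 h. Mymk, the membrane protein myomaker needed for myoblast fusion, was at 20.1, 18.9 and 48.8 CPM at 2 h and 1.38 and 1.71 CPM at 12 h, a log2 difference of -4.24 (SE 0.68), and 2 h replicate 3 was the highest library. Without it the difference was -3.66. Chrna1, a subunit of the acetylcholine receptor, was the most abundant of those that fell, at 592, 551 and 1166 CPM at 2 h and 186 and 190.4 CPM at 12 h. Myl1, a myosin light chain, was at 29, 26.7 and 19.1 CPM at 2 h and 6.77 and 6.6 CPM at 12 h, and Ryr1, the calcium release channel, at 32.1, 27.3 and 26.3 CPM at 2 h and 6.77 and 5.72 CPM at 12 h. Myh4, Myh7 and Actn2 had no count at 12 h, so that they were at least 34.9-fold, 9.72-fold and 14.4-fold lower against a floor of 3 counts over both libraries. Without replicate 1 or 2 of 12 h Myh4 (adjusted p = 0.0872 and 0.0809) and Myh7 (0.15 and 0.135) no longer passed. Tpm1 and Ttn did not pass, with log2 differences of 0.15 and 0.15, and Ttn was at 74.5, 76.5 and 107 CPM at 2 h and 93 and 97.5 CPM at 12 h.

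An E-box of the kind that MyoD prefers, CAGCTG, which reads the same on both strands, was in the windows of 6 of the 13 lower genes of this list that had one. It was in those of 18.3% of all genes with a window, and uncalled members of the list were not compared. Chrna1 held 2 and Myl1 held 1, in capitals below, and both genes kept their call without any 1 of the 5 libraries.
Chrna1: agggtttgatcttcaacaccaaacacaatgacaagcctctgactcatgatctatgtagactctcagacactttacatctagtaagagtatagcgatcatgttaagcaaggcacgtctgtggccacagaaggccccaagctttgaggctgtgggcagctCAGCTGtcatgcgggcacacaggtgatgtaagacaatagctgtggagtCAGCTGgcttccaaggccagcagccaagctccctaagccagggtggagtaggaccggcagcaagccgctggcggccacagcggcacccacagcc
Myl1: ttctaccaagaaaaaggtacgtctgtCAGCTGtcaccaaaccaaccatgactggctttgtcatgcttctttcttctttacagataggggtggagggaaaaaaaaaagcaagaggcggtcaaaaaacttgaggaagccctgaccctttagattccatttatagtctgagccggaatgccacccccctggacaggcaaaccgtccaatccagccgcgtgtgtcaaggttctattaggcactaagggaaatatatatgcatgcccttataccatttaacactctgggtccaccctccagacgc
The Chrna1 window lies at chr2:73580289-73580588 and the Myl1 window at chr1:66945007-66945306, both on the minus strand. The windows of Myh3, Myh1 and Ryr1 held no match.

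**Figure D3:**
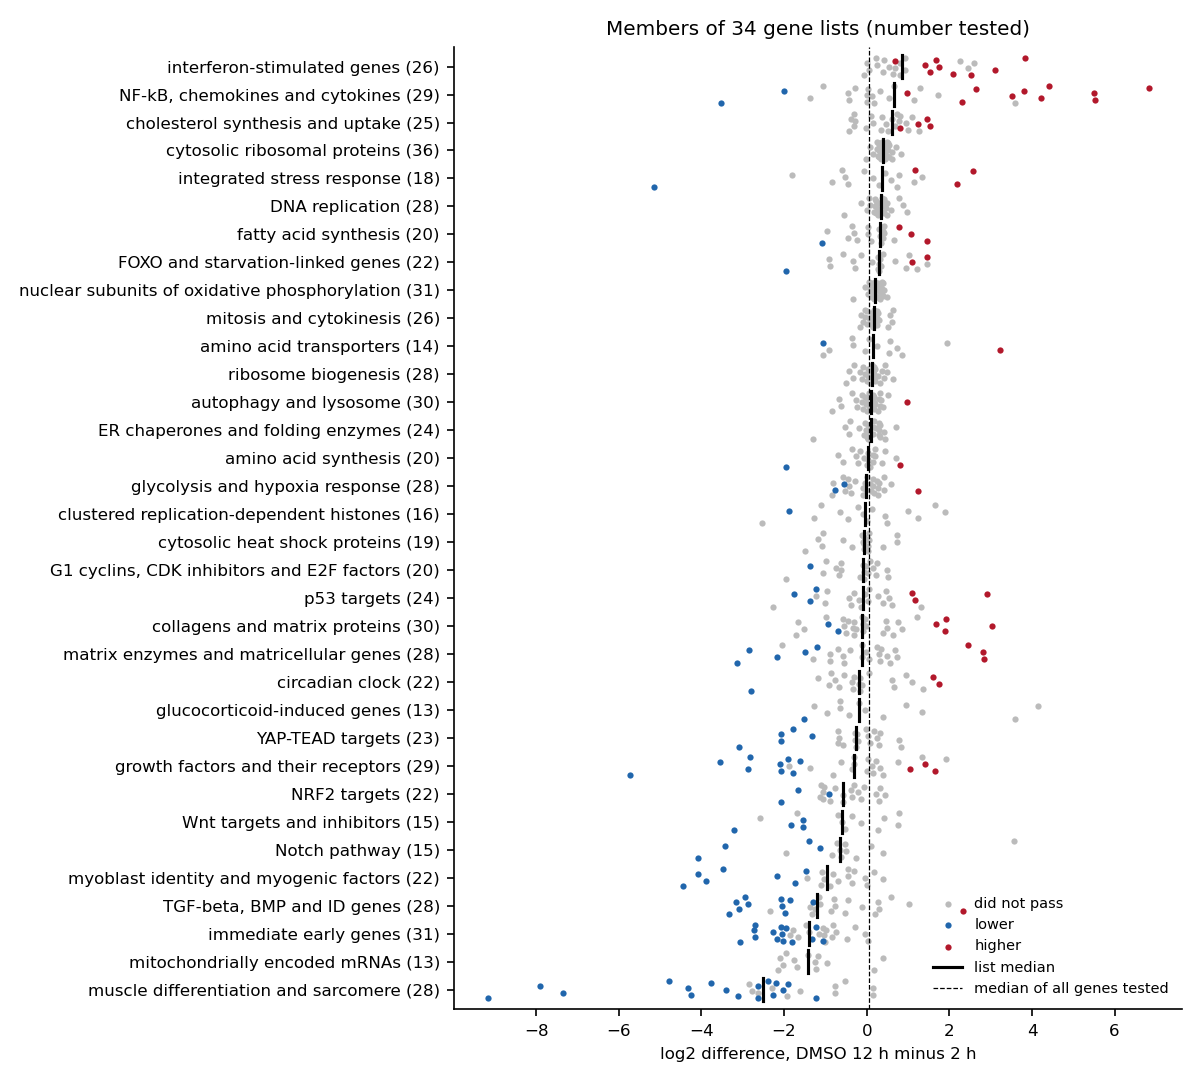
Each point is a tested member of 1 of 34 gene lists, placed by its log2 difference between DMSO at 12 h and at 2 h and coloured by its call; black bars are list medians and the dashed line is the median of all genes tested, 0.05. Muscle differentiation sits lowest at -2.51, immediate early genes lie at -1.40, and interferon-stimulated genes and chemokines lie highest at 0.86 and 0.67; the median of the mitochondrially encoded list is -1.43, and 0.08 without 2 h replicate 3.

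Of 31 immediate early genes 14 fell and 0 rose, with a median of -1.40, and at an unadjusted p under 0.05 the numbers were 23 and 0. Srf, the serum response factor, was at 242, 197 and 355 CPM at 2 h and 55.7 and 53.6 CPM at 12 h, a log2 difference of -2.28 (SE 0.23) (adjusted p = 1.60e-05). Nr4a1, an orphan nuclear receptor, was at 62.7, 51.8 and 135 CPM at 2 h and 12.6 and 12.9 CPM at 12 h, and Junb, a partner of FOS in AP-1, at 434, 391 and 340.4 CPM at 2 h and 161 and 152 CPM at 12 h. Spry4, a feedback inhibitor of growth factor signalling, was at 41.4, 39.8 and 32.4 CPM at 2 h and 10.7 and 10.8 CPM at 12 h, a log2 difference of -1.82 (SE 0.26). Egr3, a zinc finger factor, was at 47.8, 45.9 and 88.3 CPM at 2 h and 8.88 and 9.5 CPM at 12 h, a log2 difference of -2.72 (SE 0.51), but lost its call without either 12 h library (-2.67, adjusted p = 0.0748 and -2.77, adjusted p = 0.065), as Egr2 did (-1.91, adjusted p = 0.147 and -2.17, adjusted p = 0.0951). Junb lost its call without replicate 2 of 12 h (-1.27, adjusted p = 0.053). In all, 7 genes of the list passed without either 12 h library and 14 without 2 h replicate 3. Egr1 was at 92.2, 80.1 and 326 CPM at 2 h and 119.5 and 119.7 CPM at 12 h and did not pass (adjusted p = 0.726). Its log2 difference turned from -0.47 to 0.47 without 2 h replicate 3. The CArG box, searched on both strands, was in the windows of 3 of the 11 lower genes that had one (Srf, Dusp5 and Egr2) and in those of 1.81% of all genes with a window. Uncalled immediate early genes were not compared.

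Of 29 genes of growth factors and their receptors, 9 fell and 3 rose. Ereg, or epiregulin, a ligand of the EGF receptor, was at 237, 246 and 288 CPM at 2 h and 20.1 and 23.8 CPM at 12 h, and Areg, or amphiregulin, another ligand, at 42.9, 42 and 52.7 CPM at 2 h and 6.41 and 6.13 CPM at 12 h. Their log2 differences were -3.55 (SE 0.54) and -2.87 (SE 0.26), and that of Hbegf, the heparin-binding member, was -2.08 (SE 0.30). Igfbp5, a binding protein of insulin-like growth factors, was at 2753, 2368 and 3758 CPM at 2 h and 433 and 404 CPM at 12 h. Pdgfrb, a PDGF receptor, rose from 110.4, 111 and 105 to 294 and 287 CPM. Igfbp7 and Vegfc, the other 2 that rose, lost their calls without 2 h replicate 3 (adjusted p = 0.118 and 0.0951) and without replicate 1 or 2 of 12 h (0.304 and 0.207 for Igfbp7, 0.166 and 0.151 for Vegfc). Without replicate 1 or 2 of 12 h, 8 and 6 genes of the list fell and 1 rose.

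Genes of the TGF-beta and BMP pathways had a median of -1.20, with 10 of 28 lower and 1 higher. Id2, an inhibitor of basic helix-loop-helix factors and a BMP target, was at 127, 136 and 121 CPM at 2 h and 12.6 and 12.7 CPM at 12 h, a log2 difference of -3.33 (SE 0.50) (adjusted p = 0.000538). Id1 was at 175, 175 and 126 CPM at 2 h and 43.3 and 44.6 CPM at 12 h and Id3 at 237, 207 and 77.9 CPM at 2 h and 20.3 and 20.8 CPM at 12 h, with log2 differences of -1.85 (SE 0.32) and -3.08 (SE 0.42). Nog, the BMP antagonist noggin, was at 8.59, 7.44 and 9.58 CPM at 2 h and 0.405 and 1.52 CPM at 12 h. It lost its call without replicate 1 of 12 h (-2.48, adjusted p = 0.144). Bmp4, a ligand, was the gene that rose, at 2.32, 2.81 and 2.68 CPM at 2 h and 14 and 12.3 CPM at 12 h. Without 2 h replicate 3, 8 genes of the list fell, and without replicate 1 or 2 of 12 h, 3 and 5 fell. Of the 23 YAP-TEAD targets 5 fell and 0 rose, with 3 falling without 2 h replicate 3 and without either 12 h library. They were led by Ccn2, a secreted matricellular protein, at 365, 353 and 365 CPM at 2 h and 38.7 and 46.1 CPM at 12 h, a log2 difference of -3.09 (SE 0.24) (adjusted p = 2.06e-06). Ankrd1, an ankyrin repeat protein of muscle nuclei, was at 1407, 1438 and 2247 CPM at 2 h and 388 and 412 CPM at 12 h. The median of this list was -0.25. In the Notch list 4 of 15 genes fell, led among those of at least 5 CPM by Hey1, a target of Notch, at 17.7, 14.4 and 16 CPM at 2 h and 1.3 and 1.66 CPM at 12 h. Without either 12 h library 3 of them passed. Of 15 Wnt genes 4 fell, and without replicate 1 or 2 of 12 h 0 and 1 passed. With total-count scaling 6 genes of the TGF-beta and BMP list, 3 YAP-TEAD targets, 2 Notch genes and 1 Wnt gene fell.

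Matrix genes moved in both directions. Plau, the plasminogen activator urokinase, fell from 407, 364 and 215 to 67.9 and 76.9 CPM, a log2 difference of -2.18 (SE 0.36). Tnc, tenascin C, fell from 604, 584 and 862 to 248 and 238 CPM. Adamts5, a protease of aggrecan, rose from 3.62, 4.75 and 6.25 to 36.5 and 33.1 CPM, a log2 difference of 2.84 (SE 0.26). Col1a1, the main chain of type I collagen, was at 88.9, 90.2 and 98.5 CPM at 2 h and 375 and 329 CPM at 12 h, a log2 difference of 1.93 (SE 0.34), while Col3a1, of type III, did not pass (-0.26, adjusted p = 0.85). Of 30 collagens and matrix proteins 4 rose and 2 fell. Leaving out a 12 h library left 2 that rose and 0 that fell. Of 28 matrix enzymes and matricellular genes 3 rose and 5 fell, and without either 12 h library 1 rose and 3 fell. Timp3, an inhibitor of matrix proteases, was at 731, 752 and 964 CPM at 2 h and 95.1 and 88.7 CPM at 12 h, but its call was lost without either 12 h library (-3.20, adjusted p = 0.0918 and -3.10, adjusted p = 0.103).

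A few genes of metabolism, stress and the clock also changed. Of 18 genes of the integrated stress response 3 rose and 1 fell, in the full set and without any 1 of the 5 libraries. Chac1, which degrades glutathione, was at 4.53, 3.67 and 2.18 CPM at 2 h and 17.8 and 23.6 CPM at 12 h, and Trib3, a pseudokinase and ATF4 target, at 3.2, 3.44 and 1.2 CPM at 2 h and 11.4 and 12.5 CPM at 12 h. Sesn2, a stress-induced inhibitor of mTORC1, was at 11.7, 11.1 and 10.9 CPM at 2 h and 23.7 and 27 CPM at 12 h, and Vldlr, a lipoprotein receptor, at 1.44, 1.72 and 1.87 CPM at 2 h and 0.0405 and 0.0461 CPM at 12 h. Their log2 differences were 2.58 (SE 0.35), 2.19 (SE 0.30) and 1.18 (SE 0.18) for Chac1, Trib3 and Sesn2. The 6 h vehicle mean of Chac1 was 57.1 CPM (40.9 to 75.0), above both hours. The 18 genes summed to 559 to 744 CPM per library at 2 h, 1454 to 2111 at 6 h and 889 to 945 at 12 h. Atf4 itself was at 242, 244 and 132 CPM at 2 h and 324 and 356 CPM at 12 h and did not pass in edgeR, with a log2 difference of 0.72 (SE 0.25) and an adjusted p of 0.0969, while DESeq2 gave an adjusted p of 0.0209. Slc7a2, a transporter of basic amino acids, rose from 12.2, 11.7 and 12.4 to 118 and 108 CPM, a log2 difference of 3.22 (SE 0.42), although its 6 h mean was 1.51 CPM. Of the NRF2 targets 3 of 22 fell. Nqo1, a quinone reductase, was at 72.9, 76.9 and 44.2 CPM at 2 h and 20.3 and 20.8 CPM at 12 h, and Gsta4, a glutathione transferase, at 145, 151 and 121 CPM at 2 h and 34.4 and 32.1 CPM at 12 h. Without either 12 h library 2 of them passed.

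In the clock list Dbp, an output factor of the clock, was at 3.67, 4.22 and 2.57 CPM at 2 h and 10.4 and 10.8 CPM at 12 h, a log2 difference of 1.60 (SE 0.29), and Hlf, its relative, at 2.43, 2.28 and 4.1 CPM at 2 h and 10.4 and 9.27 CPM at 12 h. Npas2 fell, but not without 2 h replicate 3 or replicate 2 of 12 h (adjusted p = 0.0604 and 0.269). The core repressor Per2 and the nuclear receptor Nr1d1 did not pass, with log2 differences of -1.17 and -0.33 (adjusted p = 0.251 and 0.729). Nr1d1 was at 30.2, 35 and 89.8 CPM at 2 h and 42.2 and 39.9 CPM at 12 h, and its difference was 0.33 without 2 h replicate 3. Of 25 cholesterol genes 4 rose (Acat2, Fdps, Ebp and Dhcr7) and 0 fell, with a median of 0.61. At an unadjusted p under 0.05 12 rose. Acat2, a thiolase, was at 48.1, 51.8 and 29.2 CPM at 2 h and 124 and 126 CPM at 12 h, and it was the single gene of the list that passed without 2 h replicate 3 and without either 12 h library. Of 24 p53 targets 3 rose and 3 fell, and without either 12 h library 2 rose and 0 fell. Fas, a death receptor, was at 1.13, 1.28 and 1.12 CPM at 2 h and 9.16 and 8.62 CPM at 12 h, a log2 difference of 2.92 (SE 0.25). Txnip, an inhibitor of thioredoxin that tracks glucose, was at 55.4, 51.2 and 34.7 CPM at 2 h and 53.1 and 50.5 CPM at 12 h and did not pass (0.14, adjusted p = 0.92).

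In edgeR 0 of 26 mitosis genes and 0 of 28 DNA replication genes were called, with medians of 0.18 and 0.34. At an unadjusted p under 0.05, 3 and 5 of them were higher and 0 lower, and DESeq2 called 1 in each list higher. Without 2 h replicate 3, 1 mitosis gene passed, which was Mki67. Mki67, a marker of cycling cells, was at 437, 508 and 1050.3 CPM at 2 h and 754 and 761 CPM at 12 h, with 2 h replicate 3 the highest of the 5. Its log2 difference was 0.19 with all libraries (adjusted p = 0.83) and 0.68 without that library (adjusted p = 0.0319). Ccnd1, a cyclin that answers to growth signals, was at 298, 308 and 317 CPM at 2 h and 274 and 277 CPM at 12 h, and Hspa5, the main chaperone of the endoplasmic reticulum, at 859, 884 and 590.0 CPM at 2 h and 776 and 793 CPM at 12 h. Cdkn1a, a cyclin-dependent kinase inhibitor, fell from 201, 196 and 409.8 to 108 and 101 CPM, and its call was lost without either 12 h library (-1.41, adjusted p = 0.0675 and -1.32, adjusted p = 0.0899).

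No gene was called in edgeR among 24 chaperones and folding enzymes of the endoplasmic reticulum, 36 cytosolic ribosomal proteins or 31 nuclear subunits of oxidative phosphorylation. Their medians were 0.10, 0.39 and 0.21, and without 2 h replicate 3 they were 0.06, 0.11 and -0.02. At an unadjusted p under 0.05 the chaperones had 1 higher and 1 lower gene and the other lists 0, and DESeq2 called 0 in all 3 lists. Among 28 ribosome biogenesis genes 0 passed in edgeR, with 1 higher and 2 lower at an unadjusted p under 0.05 and 2 lower in DESeq2. The 13 mitochondrially encoded mRNAs had a median of -1.43, and of 0.08 without 2 h replicate 3. None of them was called in edgeR or DESeq2, and 1 was lower at an unadjusted p under 0.05.

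Markers of the labelled cell type and of others were summed in each library. The 8 myoblast markers summed to 2568 to 3230 CPM at 2 h and 1161 to 1212 at 12 h, with Myod1, Pax7 and Cdh15 lower and 0 higher. In the 6 h vehicle libraries the 8 summed to 3206 to 5628 CPM. Of 7 macrophage markers Ptprc, Adgre1 and Itgam were not kept by the filter on low counts, and 0 of the 4 tested passed, with 1 higher at an unadjusted p under 0.05 and 0 in DESeq2. Their summed level was 19.1 to 23.7 CPM at 2 h and 25.1 to 25.8 at 12 h, most of it from Cd14 at 18.6, 15.4 and 12.5 CPM at 2 h and 21 and 19.9 CPM at 12 h. The endothelial markers Pecam1, Cldn5 and Emcn were also not kept. Of the other 4, Tek was lower, and together they summed to 1.68 to 2.21 CPM at 2 h and 0.89 to 1.34 at 12 h. Of 6 epithelial markers tested 1 was lower (Cdh1), and the sum was 1.76 to 3.31 CPM at 2 h and 0.83 to 1.78 at 12 h. Adipocyte markers summed to 63.4 to 80.8 CPM at 2 h and 62.4 to 68.4 at 12 h, with Fabp4 and Cebpa higher, Cd36 lower and Adipoq and Plin1 not kept. Fabp4, a fatty acid binding protein, was at 0.0828, 0.0556 and 0 CPM at 2 h and 1.38 and 1.61 CPM at 12 h. Osteoblast markers summed to 137 to 343 CPM at 2 h and 89.2 to 89.5 at 12 h, with Sp7 and Dmp1 lower. Runx2, an osteoblast factor, made up most of that sum, at 114, 110.5 and 301 CPM at 2 h and 69.1 and 70.3 CPM at 12 h, and it did not pass (adjusted p = 0.0557). Of the calls in these lists, Tek (adjusted p = 0.217 and 0.227), Cdh1 (0.189 and 0.243), Cebpa (0.166 and 0.207), Cd36 (0.348 and 0.111) and Sp7 (0.0903 and 0.0738) were lost without replicate 1 or 2 of 12 h. The part of these markers in the other results was not tested. In bulk RNA, fewer cells of a type and less RNA per cell cannot be told apart.

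**Figure D4:**
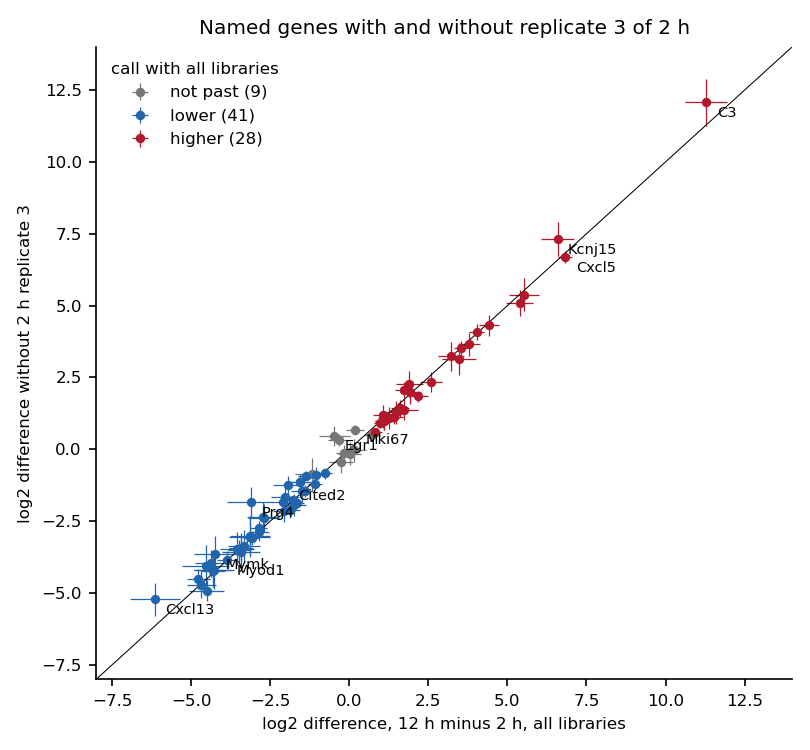
Each point is 1 of 78 named genes, with its log2 difference between DMSO at 12 h and at 2 h from all libraries (x axis) and without 2 h replicate 3 (y axis); bars are standard errors of the fit and the line marks equal values. Most genes called higher or lower lie near the line, with Prg4, Cxcl13, C3, Kcnj15, Cited2 and Mymk further off it. Egr1 and Mki67, not called, are among those that moved up.

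Leaving out 2 h replicate 3, the library of high mitochondrial share, changed some named genes. Prg4, a lubricating proteoglycan, was at 3.34, 3.31 and 17.6 CPM at 2 h and 0.973 and 0.876 CPM at 12 h, and its log2 difference moved from -3.12 to -1.84, which no longer passed (adjusted p = 0.0632). Cited2, a transcriptional co-regulator, was at 478, 456 and 1333 CPM at 2 h and 199 and 191 CPM at 12 h, and its difference moved from -1.95 to -1.26 (adjusted p = 0.042). Both also lost their calls without replicate 1 or 2 of 12 h (adjusted p = 0.184 and 0.207 for Prg4, 0.154 and 0.172 for Cited2). Cxcl13, a chemokine that draws B cells and the lowest gene by log2 difference among the named, was at 5.11, 4.69 and 18.2 CPM at 2 h and 0.203 and 0.0461 CPM at 12 h. Its difference moved from -6.15 (SE 0.78) to -5.22 and stayed past the threshold (adjusted p = 0.000104). Of the other named genes called with all libraries, Cebpa, Egln3, Fdps, Lpin1, Sesn1 and Slc7a5 no longer passed (adjusted p = 0.0894, 0.12, 0.074, 0.0583, 0.0842 and 0.0904). These 6 genes also did not pass without either 12 h library, with adjusted p from 0.108 (Fdps) to 0.348 (Lpin1). C3 moved from 11.29 to 12.07 and Kcnj15 from 6.59 to 7.30, while Cxcl5 stood at 6.68 and Myod1 at -3.86.

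Among called coding genes of at least 5 CPM with no overlap between the groups, the 10 largest falls included Ano5, a membrane protein of muscle, at 35.7, 33.1 and 40.3 CPM at 2 h and 1.99 and 1.75 CPM at 12 h. Cxcl13 and Serping1, described above, were also among these falls. Lrrn1, a leucine-rich repeat protein of the membrane, was at 8.09, 6.53 and 16.2 CPM at 2 h and 0.324 and 0.553 CPM at 12 h, and Cmah, which hydroxylates sialic acid, at 13.2, 13.6 and 16.3 CPM at 2 h and 0.649 and 0.784 CPM at 12 h. Gsta2, a glutathione transferase, was at 19.7, 19.9 and 5.33 CPM at 2 h and 0.568 and 0.738 CPM at 12 h, with 2 h replicate 3 the lowest of the 2 h group. In all 10 of these falls the 6 h vehicle mean lay between the 2 h and 12 h means, against 4 of the 10 largest increases under the same limits and 764 of the 1293 called genes (59.1%).

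The same span of hours under thapsigargin, which blocks the SERCA calcium pump of the endoplasmic reticulum, was read in libraries that share none with the vehicle comparison. There 3904 of 18039 genes passed (21.6%), 1936 higher (10.7%) and 1968 lower (10.9%). Without replicate 1 or 2 of thapsigargin at 12 h, 1940 and 1955 passed. In both comparisons 836 genes moved the same way, which is 64.7% of the vehicle calls and 21.4% of the thapsigargin calls. Of the vehicle calls 56 moved the opposite way (4.33%) and 401 did not pass under thapsigargin (31.0%). The difference between both changes was tested as an interaction, which was called for 916 genes (5.08%) and for 265 of the 1293 vehicle calls (20.5%). The interaction uses the DMSO libraries that also picked the vehicle calls, so its share among those calls is not set against that of all genes. It was called for 370 and 401 genes without replicate 1 or 2 of DMSO at 12 h. Of the 10 largest vehicle increases within the limits above 8 were also called higher under thapsigargin, and of the 10 largest falls 9 were called lower. The interaction was called for 6 of these increases and 2 of these falls.

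By group, muscle differentiation had 17 genes lower in vehicle and 20 under thapsigargin, with the interaction called for 4 of 28. Interferon-stimulated genes had 9 higher in vehicle and 16 under thapsigargin, with the interaction called for 1 of 26. In immediate early genes 14 fell in vehicle and 26 under thapsigargin, and the interaction was called for 14 of 31. Chaperones and folding enzymes of the endoplasmic reticulum had 0 called in vehicle and 19 of 24 higher under thapsigargin, with the interaction called for 15. Cxcl12 and Kif26b rose in vehicle and stood at 10.6 and 18.5 CPM and 3.36 and 2.43 CPM under thapsigargin at 2 h and 12 h. Their interactions were -3.61 (SE 0.44) and -4.49 (SE 0.36), with adjusted p = 0.000119 and 1.86e-06. The interaction for Myod1 did not pass (-1.07, adjusted p = 0.136), nor did that for C3 (-2.62, adjusted p = 0.0857).

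**Figure D5:**
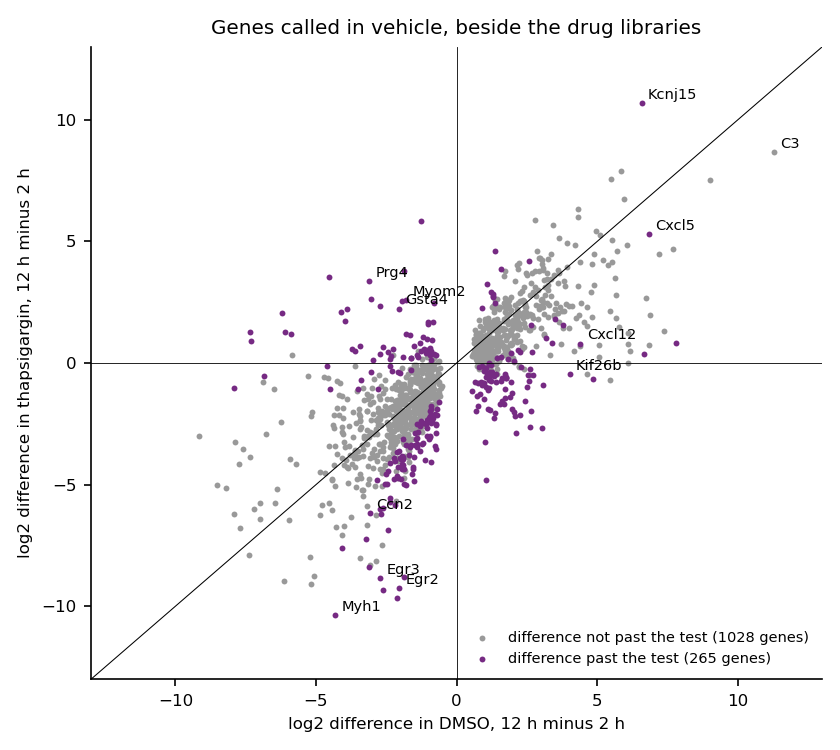
Each point is 1 of the 1293 genes called in vehicle, with its log2 difference between 12 h and 2 h in DMSO (x axis) and in thapsigargin (y axis); purple marks the 265 genes whose difference between both changes passed the test, and the diagonal marks equal change. Most points lie in the lower left and the upper right, while Kif26b and Cxcl12 lie near 0 on the y axis, and Prg4, Myom2 and Gsta4 lie in the upper left.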

How the data were processed

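The submitters' processing notes name Trim Galore, STAR 2.5.3a, bedtools 2.31.0, DESeq2 and the build mm10. The authors deposited raw counts per gene, as whole numbers. What counted the reads, with which strand setting and annotation, is not given in the sources used here, so overlapping and antisense genes may share reads. Rows of unassigned reads (13.7% to 28.7% of a library) were left out.

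Counts of all 19 libraries were fitted with edgeR 4.0.16 (limma 3.58.1, R 4.3.3): TMM scaling, filterByExpr by group, 1 mean per group, quasi-likelihood tests, two-sided, Benjamini-Hochberg over 18039 genes, called at an adjusted p under 0.05. DESeq2 1.42.0 was an alternative. SE is the standard error of a fitted log2 difference, from the F statistic. The scripts were tested on simulated data. Other alternatives were scaling, filters, sets of libraries, length and GC offsets, a replicate block and thinning. No replicate pair agreed within sampling noise. Of 55401 gene identifiers 55141 matched GENCODE M21 (GRCm38, the assembly of mm10). Figures used Python with matplotlib.

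Named genes are the 10 highest and 10 lowest called, coding, non-overlapping genes of at least 5 CPM, up to 2 called members per list, a panel of 14 genes, and 4 genes with the highest and 4 with the lowest interaction among genes called both in vehicle and in the interaction. Other genes named, the complement list and the promoters shown were chosen after their values were seen. The members and lists were chosen with earlier results of these data known. Some genes that this rule selects are not reported here.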

Additional observations from a re-analysis of the deposited data

Results flagged for a closer look

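The 16 named genes described here were called in vehicle. Their change from 2 h to 12 h differed between thapsigargin and DMSO in the interaction test of edgeR. Other named genes called in vehicle passed that test too, among them Ccn2 (log2 interaction of -3.08), Chac1 (-3.32), Errfi1 (-3.36), Fosb (-3.29), Hlf (-2.32) and Irf1 (-2.19). The interaction uses the DMSO libraries that also picked the vehicle calls. The values below are log2 interactions, thapsigargin minus DMSO, and the levels are CPM means under thapsigargin at 2 h and 12 h.

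Prg4 (6.49), Myom2 (4.38) and Gsta4 (4.30) fell in vehicle and rose under thapsigargin, while Mamdc2 (4.13) and Gsta2 (3.43) fell in vehicle and did not pass under thapsigargin. The vehicle call of Prg4 was lost without 2 h replicate 3 (log2 difference of -1.84, adjusted p = 0.0632). Prg4 was at 6.34 ± 1.37 CPM at 2 h and 65.6 ± 0.663 CPM at 12 h under thapsigargin. Myom2, a protein of the sarcomere's M band, was at 34.5, 31.6 and 33.6 CPM at 2 h and 9.08 and 10.1 CPM at 12 h in vehicle and at 29.4 ± 0.952 CPM at 2 h and 177 ± 1.17 CPM at 12 h under thapsigargin. Gsta4 was at 54.2 ± 5.79 CPM at 2 h and 256 ± 1.7 CPM at 12 h under thapsigargin. Mamdc2, a matrix protein, was at 30.1, 23.4 and 19.4 CPM at 2 h and 2.55 and 1.94 CPM at 12 h in vehicle and at 19 and 30.9 under thapsigargin. Its vehicle call was lost without replicate 2 of 12 h (log2 difference of -3.25, adjusted p = 0.0644). Gsta2 was at 10.8 and 5.08 under thapsigargin.

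Of the chemokines that rose in vehicle, Cxcl5, Ccl7 and Ccl2 rose by smaller factors under thapsigargin, with interactions of -1.52, -1.69 and -2.23. Cxcl12 (-3.61) and Kif26b (-4.49) did not pass under thapsigargin. Cxcl5 was at 17.5 ± 1.44 CPM at 2 h and 695 ± 97.4 CPM at 12 h under thapsigargin, Ccl7 at 49.9 and 177 and Ccl2 at 64.6 and 191, so that their 2 h means were above the vehicle libraries at 2 h. Kcnj15 rose in both, with an interaction of 4.10 and 0.00786 and 19.6 CPM under thapsigargin.

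Egr3 (-6.13) and Egr2 (-7.22) fell further under thapsigargin, with means of 182 and 0.393 CPM (2 h and 12 h) for Egr3 and 150.4 and 0.241 CPM for Egr2. Tcim (-5.86) and Dbp (-3.14) rose in vehicle and fell under thapsigargin. Tcim, a small regulator of proliferation, was at 5.8, 3.97 and 4.13 CPM at 2 h and 9.69 and 9.69 CPM at 12 h in vehicle and at 48 ± 7.67 CPM at 2 h and 1.73 ± 0.291 CPM at 12 h under thapsigargin. The vehicle call of Tcim was lost without either 12 h library (log2 difference of 1.06 and 1.07, adjusted p = 0.112 and 0.108). Dbp was at 8.41 ± 0.384 CPM at 2 h and 2.89 ± 0.0271 CPM at 12 h under thapsigargin. For Myh1 the interaction was -6.05, with 5.19 and 0 CPM under thapsigargin. The fitted values of Myh1 and Kcnj15 depend on the prior count of the fit, since a thapsigargin group had almost no counts.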

How the results depend on the processing

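A library of the recovery group also had a high mitochondrial share, 14.9%. Calls in vehicle were fewer with total-count scaling (850) and more with DESeq2's Wald test (2015), with length and GC offsets (1940), and when both libraries of high mitochondrial share were dropped (2251). With the 4 libraries left without 2 h replicate 3 and their own spread, a setting chosen after seeing the data, 7827 genes passed. The common biological coefficient of variation was 0.0457 in those 4 libraries, 0.244 in the 5 and 0.352 in all 19. Leaving out 1 library gave 430 to 1095 calls in vehicle, 1940 to 2961 under thapsigargin and 370 to 1067 for the interaction. Without the pair of high mitochondrial share, 6444 genes passed under thapsigargin and 2358 for the interaction. The interaction gave 478 with total-count scaling, 1612 with DESeq2's Wald test and 1604 with offsets. The cause of these shifts was not tested. DESeq2 size factors, TMM without mitochondrially encoded genes, filters, a fit of the 5 libraries alone or of the 8 vehicle libraries, and thinning of the 2 h libraries to the 12 h depth left the vehicle count between 1007 and 1529.

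Of the 69 named genes called, 41 kept their call in all 17 alternatives run on a gene. Direction turned in uncalled genes only. With 1 library left out, log2 differences ran from -0.60 to 0.33 for Nr1d1, from -0.80 to 0.47 for Egr1, from -0.040 to 0.27 for Txnip, from -0.042 to 0.68 for Mki67 and from -0.15 to 0.12 for Hspa5. Without both libraries of high mitochondrial share Nr1d1 was at 0.32, Egr1 at 0.46, Txnip at -0.053 and Hspa5 at -0.16. Hspa5 was at -0.060 with TMM without mitochondrially encoded genes, -0.050 without a filter, -0.012 in the 5 libraries and -0.026 with the replicate block, and Ccnd1 at 0.042 with total-count scaling.

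Deviations of same-numbered 2 h and 12 h libraries had correlations of 0.0215 and 0.0249, over 2 shared numbers. With 2 libraries at 12 h their deviations mirror each other, so these values are not independent and cannot exclude pairing. The main fit does not pair the libraries. With the replicate number as a block, 937 genes passed in vehicle, 926 of them among the 1293, and 3365 passed under thapsigargin. In simulated counts of the 18039 genes for the vehicle comparison, with 100 genes changed by each fold, 10% of genes changed 2-fold and 71% of those changed 4-fold were recovered. The simulation used the spread estimated from all 19 libraries and did not vary the number of libraries. At that spread small changes are often missed.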
